A study of Caenorhabditis elegans with 12 samples.

Results

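*fipr-17*, C54D10.10, C07E3.9, H32K16.1, *srh-16*, *wht-3* and T05E7.5 are the 7 genes, of 17675 on the arrays, whose RNA was called higher in *lin-54* mutants than in wild-type in both embryos and dissected germlines of *C. elegans*. They were taken by their gene symbols, with every probe set the arrays hold for them, which gave 8 of 21541 probe sets (T05E7.5 has a pair, the other genes 1 each). Calls here need a fold change of 1.5 or more together with an unadjusted limma p no higher than 0.01 on any 1 probe set of a gene. Unless a block is named, they come from a fit that leaves the replicate number out. The genes were chosen by their measured log2 changes between mutant and wild-type in both tissues, so their mutant and wild-type values below are a description and carry no test. The genes called in both tissues are 0.0396% of those on the arrays. They make up 46.7% of the 15 genes called higher in germlines and 1.03% of the 677 called higher in embryos. In a fit that blocks on the replicate number, 15 genes were called in both tissues, which make up 23.4% of 64 germline genes and 1.75% of 858 embryo genes. In embryos 3.83% of all genes were called higher, and in germlines 0.0849%.

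LIN-54 is a DNA-binding subunit of the DRM complex, the worm counterpart of the DREAM complexes that hold E2F, DP, a retinoblastoma-like protein and MuvB subunits. Such complexes sit at promoters and are best known for keeping genes repressed, among them cell cycle genes in mammals and germline genes in worm somatic cells, although in the germline of worms DRM is also needed for expression of some genes. LIN-54 reaches DNA through cysteine-rich tesmin domains.

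The tested embryos carried *lin-54(n2990)*, a missense change in the second tesmin domain that lowers DNA binding while the protein is still made, and were set against wild-type N2 embryos, both from animals grown at 25°C. The tested germlines carried *lin-54(n3423)*, a deletion regarded as null, and were set against wild-type germlines, both dissected by hand from adults kept at 20°C, 24 hours after the L4 larval stage. Each of the 4 groups has 3 arrays, each from its own biological replicate. Allele, temperature, labeling kit and an amplification step for germline RNA differed together with the tissue, and the authors normalized each tissue on its own, so levels and changes are set side by side across tissues without a test. The dissected germlines ran from the mitotic tip to late pachytene, so the later germline was left out. RNA came from all cells of the embryos and of the germline pieces, so that more cells of a type and more RNA per cell cannot be told apart.

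The single *lin-54* probe set (chromosome IV) gave log2 values of 8.88, 8.14 and 8.18 in *lin-54(n3423)* germlines, called absent on all 3 arrays, against 9.68, 11.01 and 11.02 in wild-type germlines, called present on all 3. The log2 change was −2.17 with a standard error of 0.43 (adjusted p = 1.00 over all probe sets, limma). It lost its call at the unadjusted threshold when mutant germline replicate 2 or 3 or wild-type germline replicate 2 or 3 was left out, at −2.04, −2.06, −1.95 and −1.95. In embryos with the missense allele, *lin-54* RNA differed from wild-type by 0.42 (standard error 0.11, adjusted p = 0.119). Present calls numbered 10826 to 11818 probe sets on mutant and 11737 to 11985 on wild-type embryo arrays, and 5954 to 8001 on mutant and 6347 to 8209 on wild-type germline arrays. The germline arrays numbered 1 stood apart in both genotypes. The mutant and the wild-type array of that number correlated at 0.975 with each other, above the 0.928 to 0.933 that each reached with arrays of its own genotype, whereas replicates 2 and 3 correlated at 0.984 in the mutant and 0.988 in wild-type. Values below are authors' RMA log2 values in the order of replicates 1, 2 and 3.

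*fipr-17* (WBGene00012965, chromosome III) belongs to a gene class named for its relation to peptides induced by fungal infection. Its measured log2 difference was the largest of all 21541 probe sets in both tissues, ranks here taking each difference as measured, also where a side was called absent. Its log2 values were 10.39, 10.75 and 10.33 in mutant embryos, against 6.95, 7.16 and 6.93 in wild-type embryos. The difference was 3.48 (standard error 0.14), or 11.1-fold, and the probe set was called present on every embryo array. In germlines the values were 11.53, 9.58 and 9.60 in the mutant, against 8.002, 6.48 and 5.68 in wild-type, a difference of 3.52 (standard error 0.79), or 11.5-fold, again with present calls on every array. The arrays numbered 1 read highest in both germline genotypes, and the lowest mutant array still exceeded the highest wild-type array. Within a replicate number the germline difference was 3.53, 3.10 and 3.92, and with the number blocked in the fit the standard error was 0.18. The probe set is of the type (suffix _s_at) whose probes match several transcripts, so part of its signal may come from related sequences.

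C54D10.10 (WBGene00008304, chromosome V) is annotated in the study's tables as holding a Kunitz-type domain, a fold best known from inhibitors of serine proteases. Its measured difference was the fifth largest in embryos and the second largest in germlines. Mutant embryos gave 11.56, 11.57 and 11.30, against 8.68, 8.89 and 8.89 in wild-type embryos, which differ by 2.66 on the log2 scale (standard error 0.11), or 6.30-fold. In mutant germlines the values were 10.13, 9.31 and 9.21, all called present, against 6.21, 6.06 and 5.997 in wild-type germlines, all called absent. The germline log2 difference was 3.46 (standard error 0.26). Since the wild-type side was not above background, the difference is given as at least 11.02-fold. Here the mutant genotype alone gave a detected signal in germlines, while wild-type embryos had present calls on all 3 arrays.

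A pair of the genes are membrane transporters by annotation. *wht-3* (WBGene00007631, chromosome III) is named as a White-type ABC transporter, a family known from the fly eye pigment transporter White. Its log2 values were 7.79, 7.95 and 7.58 in mutant embryos, against 6.90, 6.96 and 7.03 in wild-type embryos, 0.81 apart (standard error 0.11), or 1.75-fold. All mutant embryo arrays were called present, whereas wild-type replicate 1 was marginal, replicate 2 absent and replicate 3 present. Mutant germlines read 7.77, 7.43 and 7.74, all present, against 6.63, 6.81 and 6.60 in wild-type germlines, all absent. That germline difference was 0.97 (standard error 0.14), at least 1.96-fold. The groups did not overlap in either tissue. This probe set also has the suffix _s_at.

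H32K16.1 (WBGene00010421, chromosome I) is listed by RefSeq as *slc-36.4*; SLC36 proteins are proton-coupled amino acid transporters in mammals. In mutant embryos it read 7.50, 7.91 and 7.38, against 6.88, 6.92 and 6.88 in wild-type embryos, a log2 difference of 0.70 (standard error 0.15), or 1.63-fold. In mutant germlines it read 9.17, 8.0002 and 8.30, against 6.63, 5.99 and 5.96 in wild-type germlines, a log2 difference of 2.29 (standard error 0.36), or 4.90-fold. Every array of both tissues had a present call. Its place in the order of measured increases was the third of all probe sets in germlines and 1089 in embryos.

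*srh-16* (WBGene00005241, chromosome V) carries the symbol of the class H serpentine receptors, seven-pass proteins regarded as chemoreceptors of sensory neurons. In mutant embryos it read 8.94, 8.84 and 8.82, present on all 3 arrays, against 6.62, 6.37 and 6.35 in wild-type embryos, absent on all 3. The log2 difference was 2.42 (standard error 0.10), at least 5.35-fold, the eighth largest measured increase in embryos. Germlines gave 6.11, 5.80 and 5.92 in the mutant, against 5.43, 5.23 and 5.12 in wild-type. These differ by 0.68 (standard error 0.14), but all 6 germline arrays were called absent, so no fold is given. The germline increase of *srh-16* was thus a shift of signal that the detection calls placed at background in both genotypes, while in embryos it went with a change of call on every array.

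T05E7.5 (WBGene00020261, chromosome I) is listed by RefSeq as *vet-1*, a name given to very early transcripts, RNAs first made in the young embryo. Its probe sets, of the types _s_at and _at, each passed in 1 tissue only. The _s_at probe set read 11.41, 11.73 and 11.37 in mutant embryos, against 10.66, 9.91 and 10.46 in wild-type embryos, a log2 difference of 1.16 (standard error 0.21), or 2.24-fold. On the _at probe set mutant embryos gave 10.63, 10.77 and 10.74, against 10.39, 9.89 and 10.33 in wild-type embryos, 0.51 apart (standard error 0.15), or 1.43-fold, below the fold threshold. On both, wild-type embryo replicate 2 was the lowest array, and the lead of the mutant was widest within that number, at 1.82 and 0.88, against 0.75 and 0.24 within number 1.

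In germlines the roles of the T05E7.5 probe sets were exchanged. The _at probe set read 5.04, 4.93 and 4.43 in mutant germlines, all present, against 3.97, 4.10 and 3.91 in wild-type germlines, called absent, present and marginal. The log2 difference was 0.81 (standard error 0.18), or 1.75-fold, with 1 wild-type array measured above background. The _s_at probe set read 4.44, 4.43 and 4.19 in mutant germlines, with 1 present call, against 3.99, 3.997 and 3.84 in wild-type germlines, with none. That difference was 0.41 (standard error 0.12) and was not called. T05E7.5 was thus called present on every embryo array of both genotypes, and in wild-type germlines on 1 array of 1 probe set.

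C07E3.9 (WBGene00007419, chromosome II) has no name beyond its sequence identifier in the tables used. It read 10.64, 10.48 and 10.16 in mutant embryos, against 8.64, 8.84 and 8.68 in wild-type embryos, a log2 difference of 1.70 (standard error 0.14), or 3.26-fold. Mutant germlines gave 11.24, 10.48 and 10.48, against 9.502, 7.79 and 8.34 in wild-type germlines, 2.19 apart (standard error 0.48), or 4.57-fold. All 12 arrays were called present. Blocking on the number gave a germline standard error of 0.20, and the arrays numbered 1 were the highest in both genotypes.

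**Figure D1:**
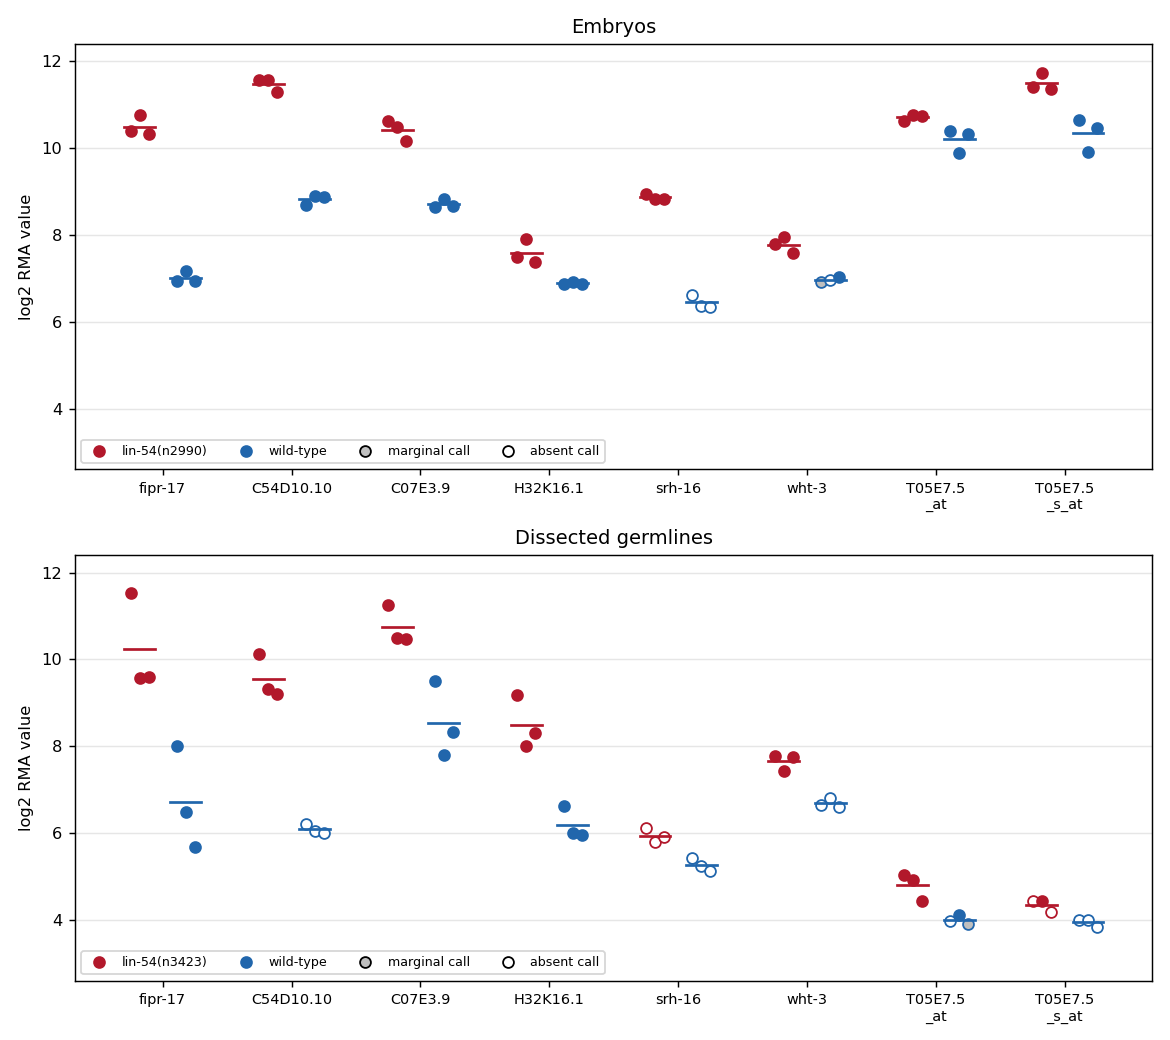
Log2 RMA value (y axis) of each of the 8 probe sets on every embryo array (top) and germline array (bottom), mutant in red and wild-type in blue, with a line at the mean of 3 arrays, filled points for present, grey for marginal and open for absent calls. Mutant points lie above wild-type points for all 8 probe sets in both tissues; *srh-16* in germlines is open in both genotypes.

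Across the genes, all mutant arrays exceeded all wild-type arrays on 8 of 8 probe sets in embryos and on 8 of 8 in germlines, a separation that 15.2% of all probe sets showed in embryos, 4.02% in germlines and 0.668% (144 probe sets) in both. Since the genes were picked for this direction, the count repeats the choice. The median log2 change over the 8 probe sets was 1.43 in embryos and 1.58 in germlines, beside medians over all probe sets of 0.00 and 0.02. In germlines 5 of the 7 genes (*fipr-17*, C54D10.10, C07E3.9, H32K16.1 and *srh-16*) were highest on the array numbered 1 in both genotypes; in embryos only *srh-16* was. The germline arrays of that number stood apart as a whole, and the share of all probe sets with this order was not counted. All 24 within-number differences were above 0 in each tissue, which the separation of mutant and wild-type arrays already fixes. They ran between 0.24 and 3.59 in embryos and between 0.34 and 3.92 in germlines. When arrays were left out in turn, in fits without the replicate block, C54D10.10 and *wht-3* stayed called in all 6 fits of each tissue. H32K16.1 lost its embryo call in 3 of the 6 embryo fits, and in the 6 germline fits *fipr-17* and *srh-16* lost theirs in 3 each and C07E3.9 and T05E7.5 in 5 each. Every log2 change stayed above 0, which the same separation fixes. Quantile normalization also ended the germline calls of *fipr-17* and C07E3.9, at log2 changes of 3.17 (standard error 0.87) and 2.14 (standard error 0.58).

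Detection calls were not part of how the genes were chosen. Present on all 3 mutant arrays and absent on all 3 wild-type arrays were 33 probe sets in embryos (0.153%), *srh-16* among them, and 3 in germlines (0.0139%), which were C54D10.10, *wht-3* and T02E9.5. The calls derive from the same signals as the log2 values, so they are no independent measure. *fipr-17*, C07E3.9, H32K16.1 and T05E7.5 were not among them in either tissue.

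**Figure D2:**
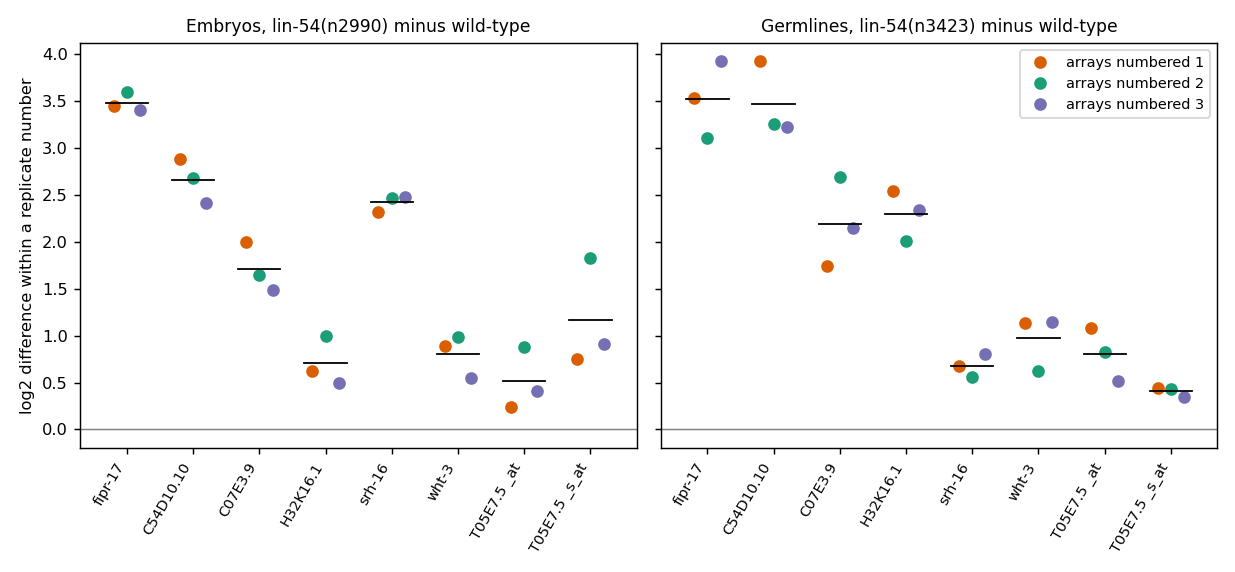
Log2 difference between mutant and wild-type arrays of the same replicate number (y axis) for each of the 8 probe sets, in embryos (left) and germlines (right), 1 color per number, with a black line at the mean difference. All 24 points lie above 0 in each panel; the germline points of *fipr-17* run from 3.10 to 3.92.

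An order by log2 change was read only among probe sets called present on at least 1 wild-type array of the tissue, 7 in embryos and 4 in germlines. In embryos it ran *fipr-17*, C54D10.10, C07E3.9, T05E7.5 (_s_at), *wht-3*, H32K16.1 and T05E7.5 (_at). Of the 6 neighbouring pairs in that order, 2 had separate ranges of their within-number differences, *fipr-17* above C54D10.10 and C54D10.10 above C07E3.9. The other 4 pairs overlapped. In germlines the order was *fipr-17*, H32K16.1, C07E3.9 and T05E7.5 (_at), in which H32K16.1 and C07E3.9 overlapped and the other pairs were separate.

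Genes close to the threshold show how the set was bounded. Just inside lay H32K16.1 in embryos (log2 change of 0.70) and *srh-16* in germlines (0.68), against a fold threshold of 0.585 on the log2 scale. Just outside lay 8 probe sets that met the fold threshold in both tissues with an unadjusted p of at most 0.05 but not of 0.01 in both. Among these were *syp-3*, a synaptonemal complex gene, at 0.93 in embryos and 0.68 in germlines, and *spo-11*, the enzyme that makes meiotic DNA breaks, at 1.22 and 0.64. The telomerase gene *trt-1* stood at 1.36 and 1.71, a gene named caltractin at 1.11 and 0.92, and C09G5.7 at 1.501 and 0.74. In germlines a further 8 genes were called higher but not in embryos, F57A10.2 with the largest germline change (2.25, against 0.23 in embryos). In 3 of these 8 the mean was lower in mutant than in wild-type embryos, *cdr-4* (1.59 in germlines and −0.22 in embryos), Y41C4A.13 (1.23 and −0.58) and *igcm-3* (0.87 and −0.09). None of those embryo differences was called, though Y41C4A.13 missed only the fold threshold. Like F57A10.2, the others were higher in mutant embryos, *gpa-1* by 0.56, F09F7.7 by 0.44, *tag-242* by 0.34 and T28H10.1 by 0.24. Of these, F09F7.7 and *tag-242* also missed only the fold threshold.

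In the fit that blocks on the replicate number, 64 genes were called higher in germlines (0.362%), 858 in embryos (4.85%) and 15 in both (0.0849%). The 15 hold all 7 genes. The others were *clpp-1*, *eif-3.I*, F23H12.3, F35D11.4, *fbxa-107*, *ucr-2.3*, W08E3.4 and Y47G6A.3. At an adjusted p of at most 0.05 over all probe sets and a fold change of at least 1.5, 138 probe sets were higher in embryos (0.641%) with the block and 53 (0.246%) without it. In germlines the count was 0 with the block and 0 without it (limma), while 179 germline probe sets (0.831%) were higher at an unadjusted p of at most 0.05 without it.

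**Figure D3:**
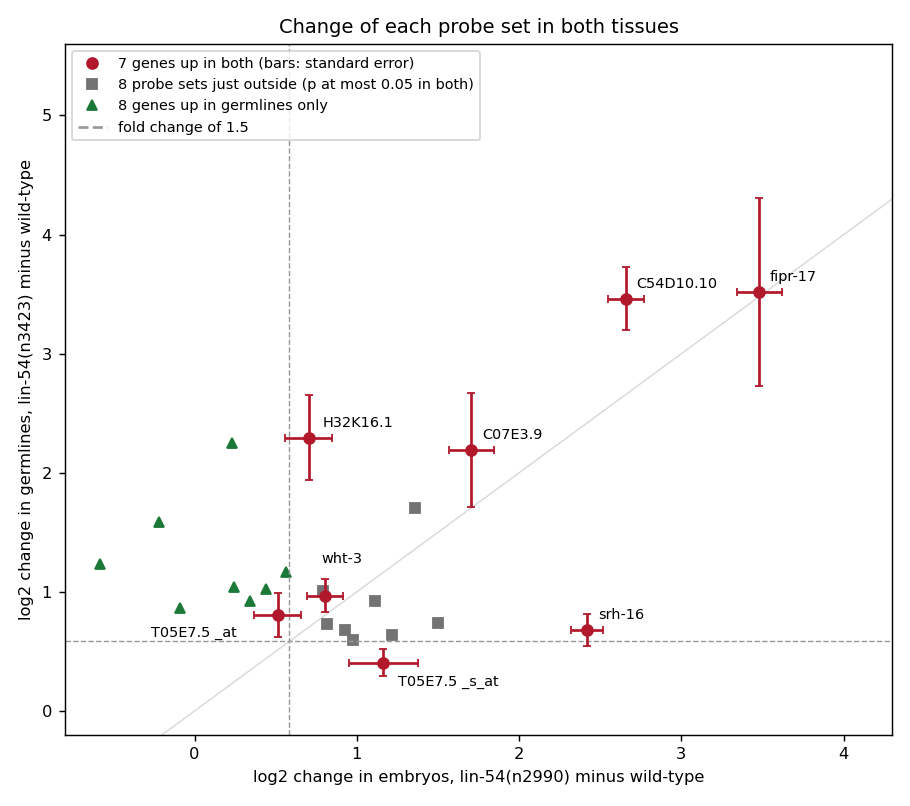
Log2 change in *lin-54(n2990)* embryos (x axis) against log2 change in *lin-54(n3423)* germlines (y axis) for the 8 probe sets of the 7 genes (red, bars give the standard error), 8 probe sets just outside the thresholds (grey squares) and 8 genes called higher in germlines only (green triangles). Dashed lines mark a fold change of 1.5 and the diagonal marks equal change; H32K16.1 (0.70 and 2.29) lies far above the diagonal and *srh-16* (2.42 and 0.68) far below it.

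The *fipr*, *srh* and *wht* symbols allow each of these genes to be set beside its named relatives. Of the other 10 *fipr* genes (11 probe sets), none was called in either tissue, and with the block none was either. Their log2 changes ran from −0.58 to 0.70 in embryos and from −0.87 to 0.22 in germlines, with a median of −0.05 in both, while *fipr-17* was at 3.48 and 3.52. Most of these relatives were not detected throughout. Of the 11 probe sets, 3 were present on all mutant and 3 on all wild-type embryo arrays, and 0 and 3 in germlines. At an unadjusted p of at most 0.05, 0 of the 11 probe sets passed in embryos and 1 was lower in germlines (limma). Over all probe sets, 12.5% were higher and 12.9% lower at that p in embryos, and 0.831% higher and 1.67% lower in germlines. The other 204 *srh* genes (230 probe sets) also had no call in either tissue. They ran from −0.37 to 0.44 in embryos and from −0.21 to 0.46 in germlines, with 4 higher and 3 lower at an unadjusted p of at most 0.05 in embryos and 4 higher and 0 lower in germlines, beside the shares just given. In embryos 16 of these 230 probe sets were present on all mutant arrays and 17 on all wild-type arrays, and in germlines 8 and 9.

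Among the *wht* relatives, in embryos 2 of the other 8 *wht* genes (11 probe sets) were called higher, where 3.83% of all genes were. At an unadjusted p of at most 0.05, 6 of the 11 probe sets were higher and 0 lower in embryos (12.5% and 12.9% of all probe sets), and 0 passed in germlines. *wht-7* changed by 1.20 (standard error 0.28, adjusted p = 0.111, limma) and 1.06 (standard error 0.19, adjusted p = 0.0936) on its probe sets. *wht-1* changed by 0.65 on 1 probe set (standard error 0.14, adjusted p = 0.105) and by 0.44 and 0.34 on the others. The median over the 11 probe sets was 0.34. Every probe set of *wht-1* and *wht-7* was among the 6 that were higher at an unadjusted p of at most 0.05. These genes therefore weigh more than once in that count and in the median. In germlines none was called, the median was 0.04 and *wht-7* stood at −0.18 and 0.08. There, 2 of the 11 probe sets were present on all mutant and 3 on all wild-type germline arrays. With the block, *wht-7* alone was called in embryos (adjusted p = 0.0448 and adjusted p = 0.0461). Whether the *wht* changes differ between embryos and germlines was not tested, because the tissues were normalized apart.

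Genes beside these 7 on the chromosomes were looked up in the RefSeq gene order of assembly WBcel235, which matched all 7 and 16050 of the genes on the arrays. The nearest protein-coding gene matched to the arrays on each side gave 14 neighbours with 19 probe sets, and for H32K16.1 1 gene without a match was passed over. None of the 14 was called in either tissue, with or without the block. Their log2 changes ran from −0.44 to 0.90 in embryos (median 0.01) and from −0.48 to 0.71 in germlines (median 0.06). F28C1.1, next to C54D10.10, had the highest embryo value at 0.90 (standard error 0.33, adjusted p = 0.171, limma). *stip-1*, next to C07E3.9, was at 0.51 on 1 probe set (standard error 0.18, adjusted p = 0.162, limma). On its other probe set it was at 0.41 (standard error 0.21, adjusted p = 0.271, limma). *frm-7*, next to *srh-16*, was at −0.44 (standard error 0.15, adjusted p = 0.154, limma). At an unadjusted p of at most 0.05, 2 of the 19 probe sets were higher and 1 lower in embryos (12.5% and 12.9% of all probe sets), and 0 passed in germlines (0.831% and 1.67%).

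The 7 genes lie on 4 autosomes, and where a chromosome holds more than 1 they are not adjacent. C54D10.10 and *srh-16* on chromosome V have 43 protein-coding genes between them, H32K16.1 and T05E7.5 on chromosome I have 671, and *fipr-17* and *wht-3* on chromosome III have 1565.

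**Figure D4:**
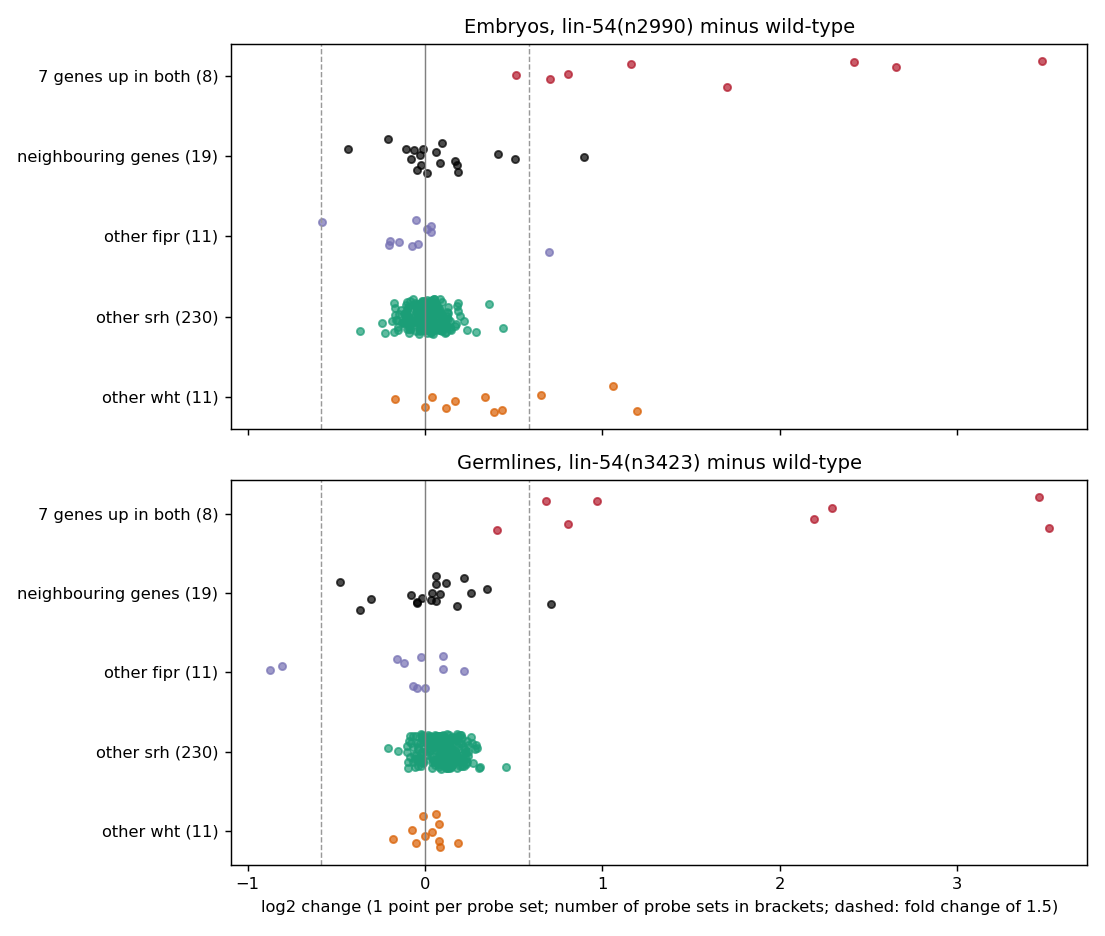
Log2 change (x axis, 1 point per probe set, vertical scatter without meaning) of the 7 genes, their 14 chromosomal neighbours and the other *fipr*, *srh* and *wht* genes, in embryos (top) and germlines (bottom), with dashed lines at a fold change of 1.5. The other 230 *srh* probe sets lie between −0.37 and 0.44 in embryos, while *srh-16* is at 2.42.

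How alike the patterns were was described by the correlation of each gene with the mean of the other 6 over the 12 arrays, after the wild-type mean of each tissue was subtracted and the probe sets of a gene were averaged. The arrays are shared and the genes were chosen for a common direction, so no p is given. *fipr-17* was closest to the rest (r = 0.980), followed by C54D10.10 (0.970), C07E3.9 (0.955), *wht-3* (0.953), T05E7.5 (0.861), H32K16.1 (0.791) and *srh-16* (0.660). The genes outside the 7 most like their mean were F41H8.1 (r = 0.930), *sri-37* (0.913), T20D4.7 (0.911), *ttll-15* (0.904) and W04B5.3 (0.902). The changes of these were small, for instance 0.23 in embryos and 0.20 in germlines for F41H8.1, and those of all 5 ran from 0.11 to 0.29.

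Marker lists of cell types were examined beside these values. In embryos, the list of 6 germ cell genes had a mean log2 level of 9.02 to 9.87 on mutant and 8.44 to 8.90 on wild-type embryo arrays (1 gene higher, 3 with the block), and that of 6 oocyte and eggshell genes 9.27 to 10.9 on mutant and 8.49 to 9.42 on wild-type arrays (1 higher, 3 with the block). The 7 maternal RNAs of early embryos stood at 10.2 to 11.4 on mutant and 9.9997 to 10.6 on wild-type arrays (0 called, 3 higher with the block). The oocyte and maternal levels overlapped between the genotypes. The levels of 4 lists of differentiated tissues did not overlap and lay lower in mutant embryos. Muscle stood at 7.44 to 9.09 on mutant and 9.52 to 9.82 on wild-type arrays (1 of 4 genes lower, 1 with the block), neurons at 8.65 to 9.39 on mutant and 9.53 to 9.80 on wild-type arrays (1 of 5 lower, 3 with the block), epidermis at 8.74 to 9.91 on mutant and 10.02 to 10.23 on wild-type arrays (0 of 4 called, 1 lower with the block), and intestine at 7.03 to 7.72 on mutant and 7.98 to 8.05 on wild-type arrays (1 of 7 lower, 2 with the block). Sperm and gonad sheath lists had 0 genes called, and 4 of 5 genes of each were absent on every embryo array. The gonad sheath list also lay lower without overlap, at 6.997 to 7.23 on mutant and 7.28 to 7.36 on wild-type embryo arrays. Of all genes, 3.83% were called higher and 1.69% lower in embryos. With the block, 4.85% were called higher and 3.83% lower. The part of these differences in the embryo values of the 7 genes was not tested.

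In germlines the 6 germ cell genes stood at 9.18 to 10.4 on mutant and 9.10 to 10.3 on wild-type arrays, with 0 called. Oocyte, maternal, intestine, muscle, epidermis and neuron lists overlapped between the genotypes, with 0 genes called in each. The list of 5 gonad sheath genes was at 6.28 to 6.57 on mutant and 6.65 to 6.97 on wild-type arrays, with 1 gene lower (0.419% of all genes were called lower) and *ceh-18*, *ehn-3*, *fkh-6* and *lim-7* absent on every array. The 5 sperm genes stood at 7.02 to 8.05 on mutant and 6.41 to 7.34 on wild-type arrays, with 0 called and *gsp-3*, *gsp-4* and *spe-9* absent on every array. The part of the sheath and sperm values in the germline values of the 7 genes was not tested.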

How the data were processed

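RNA of 12 samples was hybridized to Affymetrix *C. elegans* Genome arrays. The authors made the deposited log2 values with RMA in the affy package, separately for embryos and germlines, took gene identities from WormBase WS190, and added a present, marginal or absent detection call per array. Germline RNA was linearly amplified before labeling. The deposited tables also hold the authors' own p-values and fold changes, which were not used. Some symbols of the germline table had been turned into dates by a spreadsheet, so symbols of the embryo table, whose probe sets are the same, were used for both.

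Embryos and germlines got a limma 3.58.1 fit each (lmFit, then eBayes, in R 4.3.3), with mutant over wild-type as the contrast, and adjusted p-values are Benjamini-Hochberg over all 21541 probe sets. Figures were drawn with Python 3.11.15 and matplotlib 3.10.9. Where every wild-type array was absent, the fold is a lower bound, computed against the higher of the lowest present signal and the probe set's own value on each wild-type array. In every such case here the own value was used, so the bound equals the measured ratio. It makes no allowance for the spread between replicates. The labels name biological replicates but not separate cultures, and 3 arrays a group limit the precision.

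Arrays of the same replicate number deviated together (correlations of 0.246, 0.362 and 0.276 in embryos and 0.834, 0.363 and 0.392 in germlines), so the number was used as a block in a second fit. Other alternatives, all fitted without the block, were another threshold, filters on level or detection, only _at probe sets, averaged probe sets, median centring, quantile normalization, a trend with a robust prior, and leaving out each array. Within-number differences were added after seeing the data. The 7 genes, the symbol families, the marker lists and the rules for named genes (the 7 genes, called relatives and neighbours, the 5 most alike and the 5 nearest the threshold) were chosen with earlier results of these data known. F57A10.2, *cdr-4*, Y41C4A.13, *igcm-3*, *gpa-1*, F09F7.7, *tag-242*, T28H10.1, *frm-7*, F28C1.1 and *stip-1* were named after their values were seen. Promoter motifs were not analysed here.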

Additional observations from a re-analysis of the deposited data

How the results depend on the processing

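Leaving the differences within a replicate number aside, all 192 log2 changes of the 8 probe sets under the other settings were positive, from 0.33 to 4.16, and 190 moved by less than the spread between replicates. The exceptions among these were T05E7.5 (_s_at) in embryos (0.83) and *wht-3* in germlines (1.14), both without the arrays numbered 2. Leaving out a single array cannot move a change by as much as that spread, and the block leaves each change as it was. For those settings the outcome was thus fixed in advance. Of the 48 differences within a number, which were added after seeing the data, all were positive (0.24 to 3.92) and 18 moved by more than that spread. All mutant arrays exceeded all wild-type arrays on these probe sets. The positive sign was therefore fixed for these differences and for the fits with arrays left out. The replicate block kept all 7 genes called in both tissues, with 15 genes in all, 64 in germlines and 1 *wht* relative in embryos. At an adjusted p of at most 0.05, 51 genes were called higher in embryos, *fipr-17*, C54D10.10, *srh-16* and C07E3.9 among them, 0 in germlines and so 0 in both (15 in germlines at the unadjusted threshold). At a fold change of at least 2 there were 230 in embryos and 3 in both, *fipr-17*, C54D10.10 and C07E3.9. Only _at probe sets left 4 in both, C54D10.10, C07E3.9, H32K16.1 and *srh-16*. The filters on level and on detection each ended the germline calls of *srh-16*, which was absent on all 6 arrays, and of T05E7.5. The detection filter kept T05E7.5 (_at), which was present on all 3 mutant germline arrays, and its call there ended on the p threshold. Quantile normalization ended the germline calls of *fipr-17* and C07E3.9.

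With an array left out and no block, 347 to 1334 genes were called higher in embryos, 12 to 56 in germlines and 3 to 8 in both, 3 to 7 of these among the 7 genes. Called relatives numbered 1 to 2 higher in embryos and 0 to 1 lower in germlines (*fipr-2*, without wild-type germline replicate 2), and called neighbours 0 to 1 higher in embryos (*stip-1*, without mutant embryo replicate 3). H32K16.1 lost its embryo call without mutant replicate 2 or wild-type replicate 1 or 3, at changes of 0.55 to 0.81 over all fits with arrays left out. In germlines, C07E3.9 (1.82 to 2.67) lost its call without any 1 of the mutant arrays or wild-type replicate 2 or 3, *fipr-17* (2.87 to 4.16) without mutant replicate 1 or wild-type replicate 2 or 3, *srh-16* (0.59 to 0.77) without mutant replicate 3 or wild-type replicate 2 or 3, and T05E7.5 (_at, 0.67 to 0.99) without mutant replicate 1 or 2 or any 1 of the wild-type arrays. C54D10.10 and *wht-3* were called in all these fits. The *lin-54* change in germlines stayed between −2.62 and −1.95. The causes of these shifts were not tested.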
